A study of Mus musculus with 18 samples.

Results

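By its sort label the CD3-CD8- fraction is the liver leukocytes left when T cells are sorted away. Such cells carry CD45, the surface protein of leukocytes. They lack CD3, the signalling part of the T cell receptor, and CD8, the coreceptor of killer T cells. T cell RNA was present in the fraction all the same, as described below. The fraction's 6 libraries, 3 from untreated and 3 from treated mice, were chosen by their sort and treatment labels. They are part of 18 libraries used, the other 12 being CD3+CD8+ and CD3+CD8- cells. All mice were wild-type C57BL/6J animals bought at 7 weeks of age. Untreated mice too bore liver tumours, which were started with RAS and MYC by hydrodynamic tail vein injection, a way to drive DNA into hepatocytes of a host with its own immune cells. In treated mice, 6 intraperitoneal doses were given on alternate days, each of 4 mg/kg poly(I:C), a mimic of viral double-stranded RNA, and 200 µg of an antibody to PD-L1. Anti-VEGF-A appears in the treatment protocol but not in the labels of the treated CD3-CD8- libraries, and no control injection is described for untreated mice. Whether a library comes from 1 mouse or a pool is not stated, so p-values measure only the spread between these libraries. Replicates are named by the number in the library name, 1, 5 and 18 untreated and 2, 11 and 19 treated. The comparison asked which of the 13781 genes with enough counts differed between treated and untreated CD3-CD8- cells.

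A CD3-CD8- gate on liver leukocytes collects B cells, which make antibody and present antigen on MHC class II molecules, natural killer cells, which kill without prior priming, and myeloid cells. The myeloid cells include Kupffer cells, the macrophages that live in the liver sinusoids, along with monocytes, neutrophils and dendritic cells. PD-L1 on tumour and myeloid cells binds PD-1 on T cells and dampens them, and blocking antibodies release that brake. Poly(I:C) is sensed by Toll-like receptor 3 and the cytosolic sensor MDA5, which switch on type I interferon and the genes it induces.

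Library totals in the fraction ran from 4158555 counts (treated 11) to 28233682 (treated 19), so that 3 counts, the limit a count of 0 allows, stood for 0.106 to 0.721 CPM, the counts scaled to library size. Ribosomal loci here are mainly those of ribosomal RNA and hold no ribosomal protein gene. They took 1.42% to 2.26% of counts in untreated and 0.349% to 0.928% in treated libraries, without overlap. Mitochondrial genes took 7.26% to 30.8% and 8.49% to 29.7%, with overlap. By Xist and the Y-linked gene Kdm5d, untreated 1 and treated 2 came from female mice and the other 4 libraries from males, so each group held both sexes in the same ratio. The library names put untreated 5 and treated 19 in sequencing lane 3 and the others in lane 2.

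The groups also differed in base composition. Among genes whose transcripts had over 55% GC, the median log2 fold change was -0.87, and among those at or below 40% GC it was 0.59. In each of the 6 libraries genes of high and low GC deviated in opposite directions, and the direction was the same in all 3 libraries of a group. The fold changes therefore come from a fit that removed this trend from each library, after which the medians of the 5 GC classes lay between -0.04 and 0.00. Across genes Spearman's correlation of fold change with GC content went from -0.63 to -0.01. The part that biology or library preparation played in the trend was not tested, and calls that passed with and without its removal are given the most weight.

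**Figure D1:**
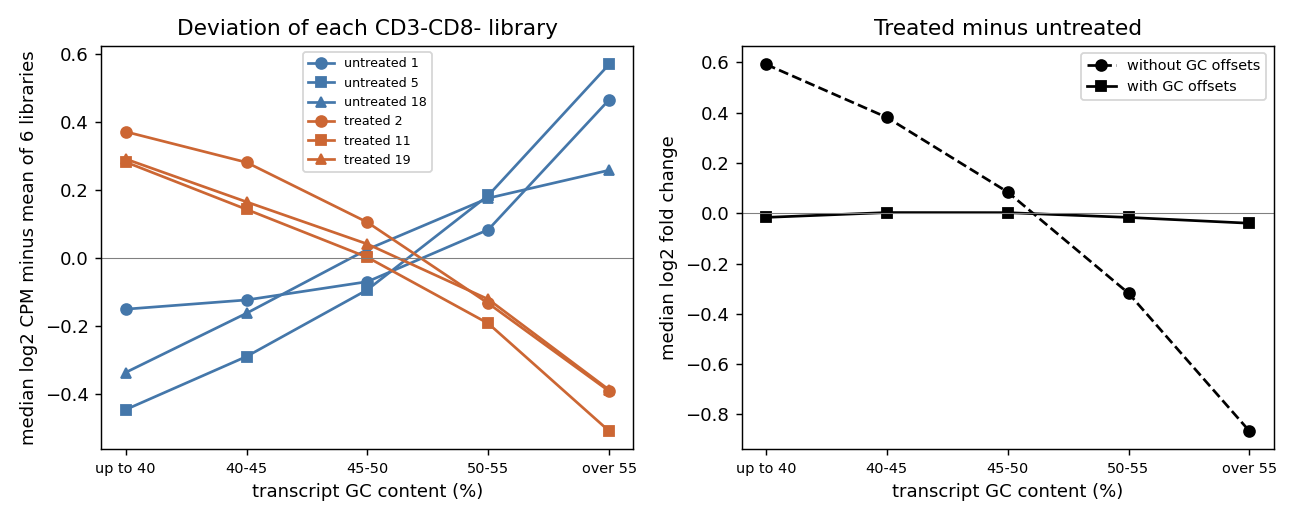
Left, the median deviation of log2 CPM from the mean of the 6 CD3-CD8- libraries (vertical axis) for genes in 5 classes of transcript GC content (horizontal axis, percent), 1 line per library. Right, the median log2 fold change of treated against untreated cells in the same classes, which ran from 0.59 to -0.87 without the GC offsets (dashed) and stayed between -0.04 and 0.00 with them (solid).

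The fraction held the cells its gate should hold, and it also held T cell RNA, which was higher in treated mice. In the scaling over all 18 libraries Cd79a, a chain of the B cell receptor, had 239, 383 and 341 CPM in untreated 1, 5 and 18 and 109, 92.8 and 143 CPM in treated 2, 11 and 19. In treated CD3+CD8+ cells it had 0.668, 1.04 and 2.10 CPM. Ncr1, which encodes the natural killer receptor NKp46, had 192, 125 and 144 CPM untreated and 48.6, 149 and 64.6 CPM treated. These B cell and natural killer markers were present in all 6 libraries, and Lyz2, the lysozyme of myeloid cells, was too. Cd3e, a chain of the CD3 complex that the gate should exclude, had 111, 125 and 51.96 CPM untreated and 311, 173 and 228 CPM treated, against 246, 371 and 387 CPM in treated CD3+CD8+ replicates 11, 2 and 19. The treated CD3-CD8- libraries thus carried Cd3e at a level that overlapped that of sorted CD3+CD8+ cells.

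Marker sums of the CD3-CD8- libraries are scaled over these 6 libraries. Summed over the 15 T cell markers, the level was 2881, 2793 and 1266 CPM in the untreated and 9454, 5787 and 6939 CPM in the treated libraries. The CD3+CD8+ libraries had 2202 to 7471 CPM in the scaling over all 18 libraries, which gives CD3-CD8- libraries lower values. Cd3e averaged 314 CPM in treated CD3-CD8- libraries in the first scaling and 238 CPM in the second, so these sums cannot be ranked against each other. The 19 B cell markers went the other way, from 5045, 7213 and 7589 CPM to 3258, 3021 and 4134 CPM. The T cell sum was thus above the B cell sum in each treated library and below it in each untreated library. The lists hold different genes, so their sums do not rank numbers of cells. Both sums separated the groups without overlap, and none of the markers in either list was at 0 in all 6 libraries. The sum over 15 conventional dendritic cell markers, 959, 1023 and 1052 CPM untreated, was also higher than the 459, 752 and 549 CPM of treated libraries. Natural killer (2119 to 3377 and 1501 to 2541 CPM), Kupffer cell (709.9 to 2622 and 291 to 1169 CPM) and monocyte and macrophage sums overlapped between groups. In bulk RNA, fewer cells of a type and less RNA per cell cannot be told apart.

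**Figure D2:**
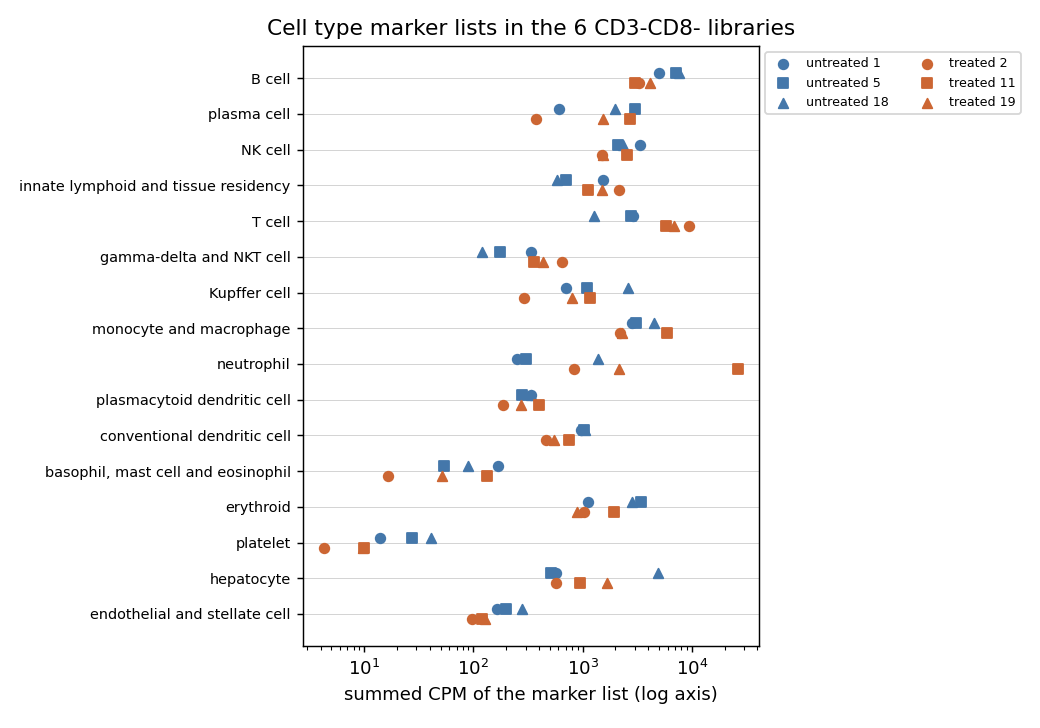
Summed CPM of each cell type marker list (horizontal axis, log scale) in the 3 untreated (blue) and 3 treated (orange) CD3-CD8- libraries, scaled over these 6 libraries. The T cell sums of treated libraries all lie above those of untreated libraries, the B cell sums all lie below, and treated 11 stands apart with a neutrophil sum of 26767 CPM.

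Of the 13781 genes tested, 527 (3.82%) differed between treated and untreated cells, 268 higher (1.94%) and 259 lower (1.88%) in treated mice (edgeR quasi-likelihood test, Benjamini-Hochberg adjusted p below 0.05). Without the GC offsets 3522 genes (25.6%) passed, 1407 higher (10.2%) and 2115 lower (15.3%), and 409 genes (2.97%) passed both ways with the same sign, 172 higher (1.25%) and 237 lower (1.72%). Counts of calls within the gene lists below stand against these shares of all genes. Counts of signs stand against the 48.4% of all genes tested that had a positive fold change with the offsets. The smallest adjusted p with the offsets was 0.0221. With the offsets no call outlasted the loss of 3 of the libraries: 0 genes passed in edgeR without untreated 1, without treated 2 or without treated 19, where 3284, 2723 and 2616 had an unadjusted p below 0.05, while 32 passed without untreated 5, 345 without untreated 18 and 347 without treated 11. Without the offsets 239 to 3183 genes passed when 1 library was left out. With the sequencing lane in the model 7 genes passed, and in 1 fit over all 18 libraries 100 did, 84 higher and 16 lower. A separation of the 3 untreated from the 3 treated libraries was itself common, since 6186 genes (44.9%) did not overlap in CPM, 20.1% higher and 24.7% lower, and 31% did not overlap in GC-adjusted CPM.

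The largest rises among genes that passed both ways were in Coch, Ica1, Faxc, Il10 and Lag3. Coch, which encodes cochlin, a secreted matrix protein (ENSMUSG00000020953.16, chromosome 12, 51593341 to 51605773), had 1.25, 0.601 and 0.685 CPM in untreated 1, 5 and 18 and 21.1, 28.05 and 38.3 CPM in treated 2, 11 and 19. It was low in every untreated library and far higher in every treated one, with a log2 fold change of 5.07 (SE 0.39, edgeR adjusted p = 0.0221). Ica1, a protein that binds membranes of the secretory pathway, had 1.16, 2.60 and 1.83 CPM untreated and 19.8, 15.7 and 19.4 CPM treated (log2 fold change 3.54, SE 0.29, edgeR adjusted p = 0.0221). Faxc had 0.983, 4.46 and 1.14 CPM and 38.9, 20.5 and 22.3 CPM (log2 fold change 3.48, SE 0.60, edgeR adjusted p = 0.0365). Neither gene overlapped between the groups, and untreated 5 was the highest untreated library for both. Ccl5, Cd101, Sept4, Actn2, Cela1, Sdcbp2 and AW011738 completed the 12 largest rises, taken over named genes whose log2 CPM averaged 3 or more, with log2 fold changes from 2.12 to 2.47. Coch and Ica1 were among the 7 genes that also passed with the sequencing lane in the model, with Havcr2, Vmp1, Glrx, Cd40 and Pck2, of which Vmp1, Glrx and Pck2 were singled out after their values were seen. Vmp1, a membrane protein that autophagy needs, had 82.9, 88.2 and 75.7 CPM untreated and 444, 325 and 402 CPM treated (log2 fold change 1.89, SE 0.16, edgeR adjusted p = 0.0221). Glrx, which encodes glutaredoxin, an enzyme that reduces protein disulfides, had 61.5, 49.3 and 58.3 CPM and 194, 183 and 181 CPM (log2 fold change 1.57, SE 0.12, edgeR adjusted p = 0.0221). Pck2, the mitochondrial form of phosphoenolpyruvate carboxykinase, had 37.1, 54.2 and 39.95 CPM and 9.87, 9.60 and 15.2 CPM, lower in treated libraries (log2 fold change -1.73, SE 0.24, edgeR adjusted p = 0.0311). For these 3 genes the spread within each group was small beside the gap. Coch, Ica1 and Havcr2 passed in all 15 alternative settings that left out no library.

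Genes of inhibitory receptors and of the exhausted state of lymphocytes were higher in treated mice. Of 22 tested, 7 rose and 0 fell with the offsets, against 1.94% and 1.88% of all genes, and 21 had a positive fold change. Their median log2 fold change was 1.02, where that of all genes was -0.02. The 7 were Havcr2, Cd101, Lag3, Eomes, Prdm1, Maf and Tigit, and each also passed without the offsets, where 13 rose against 10.2% of all genes. Havcr2, which encodes TIM-3, an inhibitory receptor of T cells, natural killer cells and myeloid cells (ENSMUSG00000020399.14, chromosome 11, 46454935 to 46481255), had 30.9, 33.4 and 27.4 CPM untreated and 109, 103 and 127 CPM treated. The spread within each group was narrow beside the gap between them, with a log2 fold change of 1.65 (SE 0.16, edgeR adjusted p = 0.0256).

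Lag3, an inhibitory receptor that binds MHC class II (ENSMUSG00000030124.2, chromosome 6, 124904361 to 124911705), had 21.7, 58.3 and 12.4 CPM untreated and 132, 87.9 and 91.7 CPM treated (log2 fold change 2.94, SE 0.46, edgeR adjusted p = 0.0339). Its transcript has 59.9% GC, and without the offsets its fold change was 1.74. Tigit, a receptor for poliovirus receptor family ligands, had 60.9, 119 and 33.2 CPM and 261, 212 and 240.1 CPM (log2 fold change 2.03, SE 0.42, edgeR adjusted p = 0.0486). Cd101, an inhibitory surface protein found on late exhausted T cells and on some myeloid cells, had 20.2, 30.7 and 15.98 CPM and 106, 57.9 and 87.1 CPM (log2 fold change 2.27, SE 0.28, edgeR adjusted p = 0.0311). For all 4 receptors every treated library was above every untreated one, and for Lag3, Tigit and Cd101 untreated 5 was the highest of the untreated libraries. Among transcription factors of effector and exhausted lymphocytes, Eomes rose by 1.83 (SE 0.31), Prdm1 by 1.46 (SE 0.25) and Maf by 0.70 (SE 0.13) on the log2 scale, with edgeR adjusted p-values of 0.0355, 0.037 and 0.0404. Pdcd1, which encodes PD-1, had 36.7, 127 and 12.6 CPM untreated and 340.2, 225 and 260.4 CPM treated, and it did not pass (log2 fold change 2.78, SE 0.72, edgeR adjusted p = 0.0705). Its untreated libraries were far apart, with untreated 5 the highest, and all were below the treated ones. T cell RNA was higher in the same libraries, 15 of 15 T cell markers having a positive fold change with a median of 1.41, and its part in the rises was not tested.

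The T cell markers themselves passed for 1 gene with the offsets and for 11 of 15 without, where 10.2% of all genes rose. Cd3g, a chain of the CD3 complex, had 557, 424 and 199.5 CPM untreated and 2389, 1653 and 1866 CPM treated (log2 fold change 1.72, SE 0.35, edgeR adjusted p = 0.0465). Cd8a had 237, 378 and 86.3 CPM and 1337, 698 and 1066 CPM, a separation with no overlap that did not pass (log2 fold change 2.0, SE 0.53, edgeR adjusted p = 0.075), and Cd3e did not pass either (0.99, SE 0.35, edgeR adjusted p = 0.139). Untreated 18 was the lowest library for all 3 of these genes and treated 2 the highest. Ptprc, which encodes CD45, the protein all cells of the sort share, had 1881, 1709.5 and 1646 CPM untreated and 3562, 2369 and 2559 CPM treated. Its fold change was 0.70 without the offsets and 0.12 with them (SE 0.21, edgeR adjusted p = 0.759), so the removal of the GC trend took up nearly all of that gap.

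Among 19 genes of cytotoxic effectors, 2 rose and 0 fell, against 1.94% and 1.88% of all genes. A positive fold change was found in 11, against 48.4% of all genes. Gzma, which encodes the serine protease granzyme A, had 1125, 1540.1 and 1039 CPM untreated and 3573, 4282 and 4816 CPM treated (log2 fold change 1.46, SE 0.28, edgeR adjusted p = 0.0424). Cst7, which encodes cystatin F, a protease inhibitor of killer cells, had 87.4, 89.6 and 46.5 CPM and 289, 150.1 and 231 CPM (log2 fold change 1.67, SE 0.34, edgeR adjusted p = 0.0465). Gzmb, granzyme B, had 882, 463 and 417 CPM and 2246, 1733 and 1734 CPM and lay just outside the threshold (log2 fold change 1.51, SE 0.32, edgeR adjusted p = 0.0505). The granzymes separated the groups without overlap. The list's median of 0.55 rested on treated 2, without which it was -0.01.

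Secreted signals changed in both directions. Of 19 cytokine genes tested, 2 rose (Il10 and Csf1) and 2 fell (Il6 and Tgfb1), against 1.94% and 1.88% of all genes. These 4 were among the 9 that passed without the offsets, 4 higher and 5 lower, where 10.2% and 15.3% of all genes were. Il10 (ENSMUSG00000016529.5, chromosome 1, 131019845 to 131024974), which encodes a cytokine that damps inflammation, had 1.97, 2.09 and 1.03 CPM untreated and 29.3, 13.6 and 13.6 CPM treated (log2 fold change 3.12, SE 0.41, edgeR adjusted p = 0.0311). Csf1, the growth factor of macrophages, had 10.2, 19.02 and 21.9 CPM and 27.5, 38.7 and 45.2 CPM (log2 fold change 1.62, SE 0.31, edgeR adjusted p = 0.0429). Treated 2 was highest for Il10 and lowest of the treated libraries for Csf1, and no treated library overlapped an untreated one for either. Il6, a cytokine of acute inflammation, had 3.48, 2.82 and 2.40 CPM untreated and 0.379, 0.505 and 0.92 CPM treated, without overlap (log2 fold change -2.74, SE 0.44, edgeR adjusted p = 0.0345). Tgfb1, which encodes TGF-beta 1, a growth factor that restrains immunity, had 56.8, 59.3 and 65.2 CPM and 25.2, 24.3 and 30.1 CPM (log2 fold change -0.88, SE 0.12, edgeR adjusted p = 0.0311). Its 3 untreated libraries lay close together, and all were above the treated ones.

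Of 14 chemokine ligands tested, 1 rose and 0 fell, where 1.94% of all genes rose and 1.88% fell. Ccl5, a chemokine of activated T and natural killer cells, had 736, 1057 and 325 CPM untreated and 3286, 1903 and 3364 CPM treated (log2 fold change 2.34, SE 0.45, edgeR adjusted p = 0.0427). Every treated library exceeded every untreated one, with treated 11 the lowest of the 3. Of 16 costimulatory genes, 1 rose and 1 fell. Tnfrsf1b, the second receptor of tumour necrosis factor, had 168, 199 and 182 CPM and 296, 256 and 267 CPM (log2 fold change 0.99, SE 0.12, edgeR adjusted p = 0.0311), and Cd40, through which T cells activate B cells and dendritic cells, had 44.1, 62.8 and 48.9 CPM and 18.6, 16.7 and 21.1 CPM (log2 fold change -1.46, SE 0.18, edgeR adjusted p = 0.0311).

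**Figure D3:**
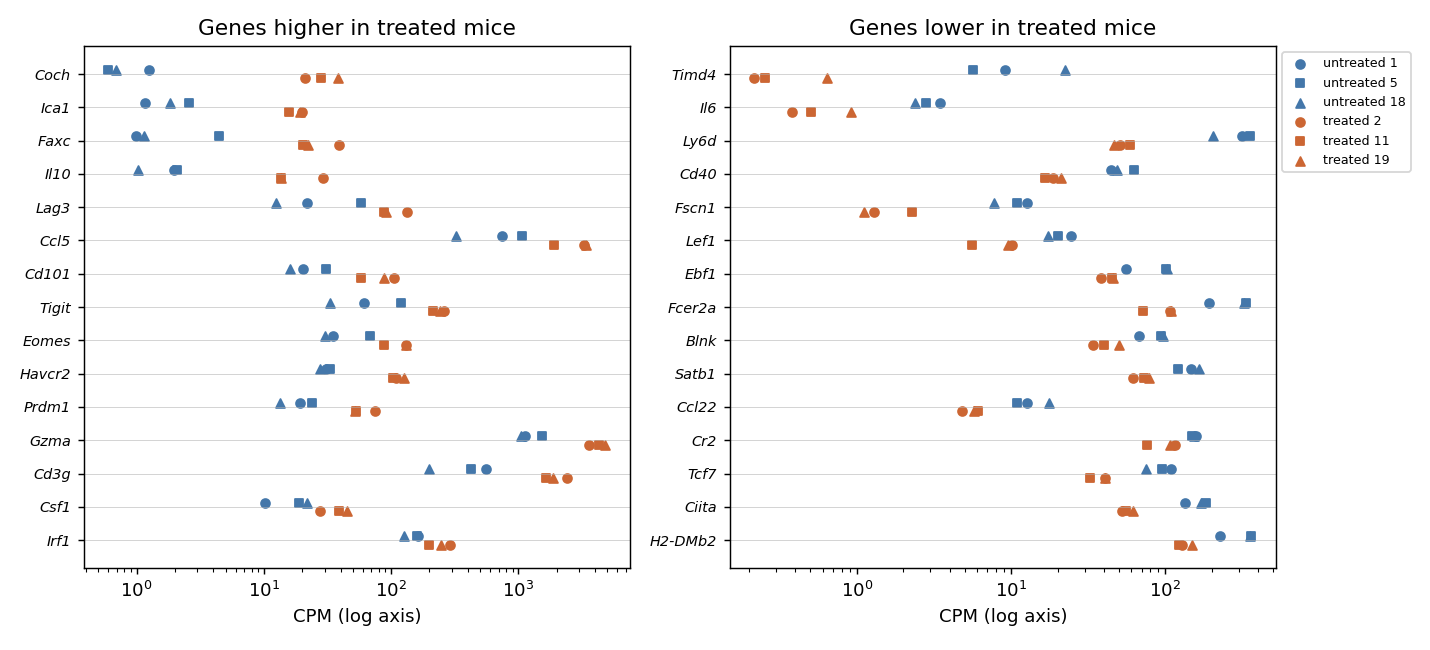
CPM by library (horizontal axis, log scale, scaled over the 6 CD3-CD8- libraries) of 15 genes that were higher and 15 that were lower in treated mice, with untreated libraries in blue and treated ones in orange. For each gene the 3 treated libraries lie to one side of the 3 untreated ones, by the most for Coch and Timd4.

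B cell genes were lower in treated mice. All 19 B cell markers had a negative fold change, with a median of -0.91 against -0.02 for all genes, and 6 fell and 0 rose with the offsets, where 1.88% of all genes fell, and 15 fell and 0 rose without, where 15.3% of all genes fell. Ly6d, a surface protein that marks early and mature B cells (ENSMUSG00000034634.7, chromosome 15, 74762056 to 74763620), had 313, 355 and 204 CPM untreated and 51.01, 59.4 and 46.8 CPM treated (log2 fold change -2.02, SE 0.22, edgeR adjusted p = 0.027). Fcer2a, which encodes CD23, the low-affinity IgE receptor of mature B cells, had 193, 331 and 324 CPM and 107, 72.02 and 109 CPM (log2 fold change -1.32, SE 0.24, edgeR adjusted p = 0.0387). Cr2, which encodes CD21, the complement receptor that sits beside the B cell receptor, had 157, 148 and 153 CPM and 115, 76.3 and 107 CPM (log2 fold change -1.08, SE 0.16, edgeR adjusted p = 0.0311). The treated libraries were lower for all 3 genes without overlap, by the most for Ly6d. Ebf1, the transcription factor that commits cells to the B lineage, fell by 1.39 on the log2 scale, Fcrla, an Fc receptor-like protein inside B cells, by 1.07 and Ralgps2 by 0.89 (edgeR adjusted p = 0.0454, 0.0416 and 0.0498), of which Ralgps2 did not pass without the offsets. Cd79a, a marker of the fraction, had 313, 503 and 484 CPM and 148, 118 and 188 CPM and did not pass with the offsets (log2 fold change -0.97, SE 0.23, edgeR adjusted p = 0.0586).

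Genes of the signalling chain behind the B cell receptor were lower too. Of 16 tested, 15 had a negative fold change and 3 fell, Blnk, Malt1 and Ptpn6, where 1.88% of all genes fell. Blnk, the adaptor that links the kinase Syk to its targets, had 66.99, 93.1 and 96.1 CPM untreated and 33.8, 39.9 and 50.4 CPM treated (log2 fold change -1.25, SE 0.22, edgeR adjusted p = 0.0384). Ptpn6, which encodes the phosphatase SHP-1, had 394, 471 and 366 CPM and 188, 174 and 179.5 CPM (log2 fold change -0.63, SE 0.12, edgeR adjusted p = 0.0441). Malt1, a protease of the NF-kappaB pathway, fell by 0.87 (edgeR adjusted p = 0.0433) but had -0.10 without the offsets and did not pass there. The list's median was -0.62, smaller than that of the B cell markers.

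Genes of MHC class II presentation were lower as well. Of 16 tested, 15 had a negative fold change, with a median of -0.82, and 2 fell and 0 rose with the offsets, 10 and 0 without (15.3% of all genes fell without). Ciita, the coactivator that switches on the class II genes (ENSMUSG00000022504.9, chromosome 16, 10488178 to 10527564), had 134, 182 and 169 CPM untreated and 52.04, 55.8 and 61.4 CPM treated (log2 fold change -0.94, SE 0.14, edgeR adjusted p = 0.0332). H2-DMb2, a chain of the H2-DM molecule that helps load peptides (ENSMUSG00000037548.14, chromosome 17, 34143307 to 34151553), had 228, 360.2 and 353 CPM and 129, 122 and 149 CPM (log2 fold change -0.90, SE 0.18, edgeR adjusted p = 0.0487). Neither gene overlapped between the groups, and the removal of the GC trend reduced the fold change of Ciita from -1.52 to -0.94. The classical class II chain H2-Aa had 2130.0, 2748 and 3345 CPM and 1089.9, 1541 and 1482 CPM without passing (-1.15, SE 0.26, edgeR adjusted p = 0.0541). B cell markers were lower in the same libraries, and their part in the class II values was not tested.

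The class II genes share short promoter elements to which the RFX and NF-Y complexes bind, and CIITA acts on these complexes. To show these elements, the 150 bases before the start of H2-DMb2, which passed, and of 3 class II genes that did not pass with the offsets follow, from RefSeq (GRCm38.p6), 5′ to 3′ on the gene's strand. Capitals mark GATTGG, the core of the Y box bound by NF-Y, and, where it lies 15 to 30 bases upstream of that core, GCAAC, part of the X1 box bound by RFX. The stretch of H2-DMb2 lies at chr17:34145099-34145248, plus strand, and that of H2-Aa at chr17:34287824-34287973, minus strand. Those of H2-Eb1 and H2-Ob lie at chr17:34305717-34305866 and chr17:34238755-34238904, both plus strand. The H2-DMb2 stretch lies inside the locus given above for that gene (34143307 to 34151553), because the RefSeq start used here differs from the start of that locus.
H2-DMb2: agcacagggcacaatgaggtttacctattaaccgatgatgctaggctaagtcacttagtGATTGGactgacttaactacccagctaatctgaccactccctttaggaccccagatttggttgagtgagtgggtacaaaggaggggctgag
H2-Aa: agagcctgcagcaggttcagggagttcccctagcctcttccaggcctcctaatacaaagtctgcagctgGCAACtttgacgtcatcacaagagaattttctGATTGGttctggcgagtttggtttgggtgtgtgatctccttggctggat
H2-Eb1: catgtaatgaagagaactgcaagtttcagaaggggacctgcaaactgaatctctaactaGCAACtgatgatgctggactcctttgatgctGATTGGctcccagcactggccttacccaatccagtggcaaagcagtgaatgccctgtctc
H2-Ob: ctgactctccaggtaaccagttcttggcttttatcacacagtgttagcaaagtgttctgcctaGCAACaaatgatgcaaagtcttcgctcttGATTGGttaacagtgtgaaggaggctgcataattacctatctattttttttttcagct

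Of the 16 class II genes, 12 were in the promoter table, and GATTGG occurred on either strand in the 150 bases of 8 of them, against 10.9% of all 32851 promoters. The spaced pair occurred on the gene's strand in 5 (H2-Aa, H2-Eb1, H2-Eb2, H2-Oa and H2-Ob), against 0.204% of all promoters on either strand. The members are counted by gene, while all promoters are counted by listed start. These elements were picked because class II genes are known to share them, so the counts are a description and not a test. H2-DMb2, which passed, carries GATTGG 91 bases before its RefSeq start without the upstream GCAAC. H2-Aa, H2-Eb1 and H2-Ob carry both, with the core 49, 60 and 58 bases before the RefSeq start. The fold changes of these 4 genes were -0.90, -1.15, -0.89 and -0.83 on the log2 scale. A match describes these letters and not a bound factor.

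Genes of naive and memory lymphocytes were lower in treated mice. Of 14 tested, 4 fell and 0 rose with the offsets, 9 and 0 without (15.3% of all genes fell without), and 12 had a negative fold change with a median of -0.97. Tcf7, which encodes the transcription factor TCF-1 of naive and stem-like T cells and of innate lymphoid cells, had 109, 94.5 and 74.3 CPM untreated and 40.7, 32.6 and 40.5 CPM treated (log2 fold change -1.01, SE 0.18, edgeR adjusted p = 0.0386). Lef1, its relative, had 24.3, 20.00 and 17.5 CPM and 10.1, 5.56 and 9.60 CPM (log2 fold change -1.45, SE 0.25, edgeR adjusted p = 0.0365). These 2 genes fell in the same libraries in which the T cell markers were higher. Satb1, a chromatin organizer of lymphocytes, fell by 1.27 and Foxp1, a transcription factor of B cells and quiescent T cells, by 1.03 on the log2 scale (edgeR adjusted p = 0.0311 and 0.0311).

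Among genes of innate cells, 1 Kupffer cell gene and 2 conventional dendritic cell genes passed. Of 17 Kupffer cell genes tested, all had a negative fold change and 1 fell, where 1.88% of all genes fell. Timd4, the receptor by which resident macrophages take up dying cells (ENSMUSG00000055546.6, chromosome 11, 46810800 to 46844332), had 9.11, 5.63 and 22.4 CPM untreated and 0.217, 0.253 and 0.64 CPM treated (log2 fold change -5.10, SE 0.70, edgeR adjusted p = 0.0311). It lay near or under the level of 3 counts in treated 2 and 11, above it in treated 19, and was highest in untreated 18. The other Kupffer genes varied with the library: the list's median of -0.92 was -0.11 without untreated 18, the library with the highest Kupffer and hepatocyte sums. Cd5l, a secreted protein of tissue macrophages, had 100.4, 174 and 529 CPM and 63.7, 320.4 and 190.4 CPM and did not pass. Fscn1, which bundles actin in mature dendritic cells, had 12.7, 10.9 and 7.76 CPM and 1.30, 2.27 and 1.12 CPM (log2 fold change -1.66, SE 0.33, edgeR adjusted p = 0.0461), and Ccl22, a chemokine of mature dendritic cells, had 12.6, 10.98 and 17.6 CPM and 4.77, 6.06 and 5.76 CPM (log2 fold change -1.14, SE 0.23, edgeR adjusted p = 0.0477). These were the 2 of 15 conventional dendritic cell genes that fell, where 1.88% of all genes fell, and 13 of the 15 had a negative fold change.

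All 15 natural killer genes had a negative fold change with the offsets, with a median of -1.15, and 1 fell, where 1.88% of all genes fell. That was Itga2, the integrin chain CD49b of natural killer cells, with 19.8, 18.7 and 24.9 CPM untreated and 14.3, 13.1 and 10.4 CPM treated (log2 fold change -1.08, SE 0.17, edgeR adjusted p = 0.0345). Ncr1 had 251, 163 and 204 CPM and 65.97, 189 and 84.7 CPM, with treated 11 inside the untreated range before the GC offsets, and did not pass (log2 fold change -1.15, SE 0.40, edgeR adjusted p = 0.135). Klrd1, which encodes CD94, had a fold change of -0.06 with the offsets and 0.65 without, so the count of 15 depends on the GC offsets. Of 13 plasmacytoid dendritic cell genes, 2 rose, Pacsin1 (11.9, 14.3 and 11.5 CPM untreated, 26.9, 22.7 and 21.3 CPM treated, log2 fold change 1.75, SE 0.16, edgeR adjusted p = 0.0235) and Runx2, a transcription factor of plasmacytoid and activated lymphoid cells (log2 fold change 0.98, SE 0.14, edgeR adjusted p = 0.0311), while 9 of the 13 had a negative fold change. Of 9 endothelial and stellate cell genes 1 fell, Pecam1, an adhesion molecule that leukocytes carry too (log2 fold change -0.86, SE 0.14, edgeR adjusted p = 0.0355).

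Neutrophil RNA was far higher in 1 treated library than in the rest. The 16 neutrophil genes tested of a list of 20 all had a positive fold change, with a median of 3.06. In edgeR with the offsets 0 passed and 9 had an unadjusted p below 0.05, while 4 passed without the offsets, 3 by DESeq2 and 4 by limma voom. Of all 13781 genes 3490 had such a p, 3522 passed without the offsets, 1811 by DESeq2 and 3369 by limma voom. The summed level of the list was 249, 303 and 1380.4 CPM in untreated and 840.5, 26767 and 2139 CPM in treated libraries, so treated 11 stood far above the other treated libraries and untreated 18 exceeded treated 2. The CD3+CD8- libraries had 3691 to 33898 CPM in the scaling over all 18 libraries, which is not that of the sums above. S100a8, an abundant calcium-binding protein of neutrophils, had 47.97, 70.5 and 384 CPM untreated and 249, 9540.5 and 737 CPM treated. Without treated 11 the median was 0.96. Of the 16 genes 4 did not overlap between the groups in GC-adjusted CPM, where 31% of all genes did not. Lyz2, shared by neutrophils, monocytes and macrophages, had 896, 983 and 1561 CPM and 941, 2851 and 863 CPM and did not pass (0.42, SE 0.50, edgeR adjusted p = 0.641). Of 26 monocyte and macrophage genes, 0 passed with the offsets in edgeR (7 had an unadjusted p below 0.05, 5 passed by DESeq2 and 4 by limma voom). Without the offsets 3 passed, 1 higher and 2 lower, fewer than the share of all genes, of which 10.2% were higher and 15.3% lower.

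The list of type I interferon-stimulated genes, which poly(I:C) is known to induce, gave 0 calls in edgeR with the offsets. Of 46 type I interferon-stimulated genes tested 15 had an unadjusted p below 0.05, 4 passed by DESeq2 and 9 by limma voom. Of all 13781 genes 3490 had such a p, 1811 passed by DESeq2 and 3369 by limma voom. In the edgeR fit 28 of the 46 had a positive fold change, against 48.4% of all genes, and their median was 0.08. Without the offsets 9 were higher and 4 lower past the threshold, where 10.2% and 15.3% of all genes were. Isg15, a ubiquitin-like protein that interferon induces, had 36.8, 29.2 and 28.2 CPM untreated and 28.4, 30.3 and 11.6 CPM treated, which overlap (-0.11, SE 0.36, edgeR adjusted p = 0.877). Mx1, an interferon-induced GTPase that blocks influenza virus, had 25.99, 23.2 and 26.7 CPM and 60.6, 46.2 and 36.9 CPM, without overlap, and lay just outside the threshold (log2 fold change 0.81, SE 0.18, edgeR adjusted p = 0.0514). Samd9l, another interferon-induced gene, had a fold change of 0.42 with the offsets and 1.01 without, and Ifi203, of low GC content, 0.11 and 0.72. Of 15 genes of double-stranded RNA sensing 0 passed with the offsets, 5 had an unadjusted p below 0.05, 2 passed by DESeq2 and 4 by limma voom, and 7 had a positive fold change. The time between the last dose and the sampling of the livers is not stated.

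Interferon-gamma-induced genes gave 1 call, a rise, where 1.94% of all genes rose. Irf1, a transcription factor that interferon-gamma induces, had 161, 159.9 and 127 CPM untreated and 292, 199.6 and 247 CPM treated (log2 fold change 1.05, SE 0.17, edgeR adjusted p = 0.0355). Every treated library was above every untreated one, with treated 11 the lowest of the 3. Of the 23 tested 19 had a positive fold change, against 48.4% of all genes, with a median of 0.42. Of 20 genes of MHC class I presentation 18 had a positive fold change and 2 rose, Psme1, a subunit of the proteasome activator PA28 (log2 fold change 1.06, SE 0.18, edgeR adjusted p = 0.0361), and H2-Q4, a nonclassical class I molecule (log2 fold change 0.87, SE 0.16, edgeR adjusted p = 0.0416). Neither passed without the offsets, where their fold changes were 0.36 and 0.38, and the list's median went from 0.34 to 0.03. B2m, the light chain of class I molecules, had 4599, 2912 and 2895 CPM and 6368, 5132 and 4878 CPM and did not pass (0.19, SE 0.25, edgeR adjusted p = 0.68).

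The target of the antibody did not differ detectably. Cd274, which encodes PD-L1, had 50.6, 46.8 and 62.3 CPM untreated and 62.2, 57.9 and 38.8 CPM treated, with overlap (-0.27, SE 0.18, edgeR adjusted p = 0.402). Of 12 checkpoint ligands tested 1 fell and 1 rose, against 1.88% and 1.94% of all genes. Cd200, whose receptor calms myeloid cells, had 47.4, 53.8 and 44.2 CPM and 28.6, 32.1 and 31.9 CPM (log2 fold change -0.94, SE 0.16, edgeR adjusted p = 0.0355), and Vsir, which encodes the inhibitory ligand VISTA, had 144, 175 and 142 CPM and 188, 172 and 179 CPM (log2 fold change 0.68, SE 0.11, edgeR adjusted p = 0.0361). Vsir overlapped between the groups in CPM and passed with the offsets alone.

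**Figure D4:**
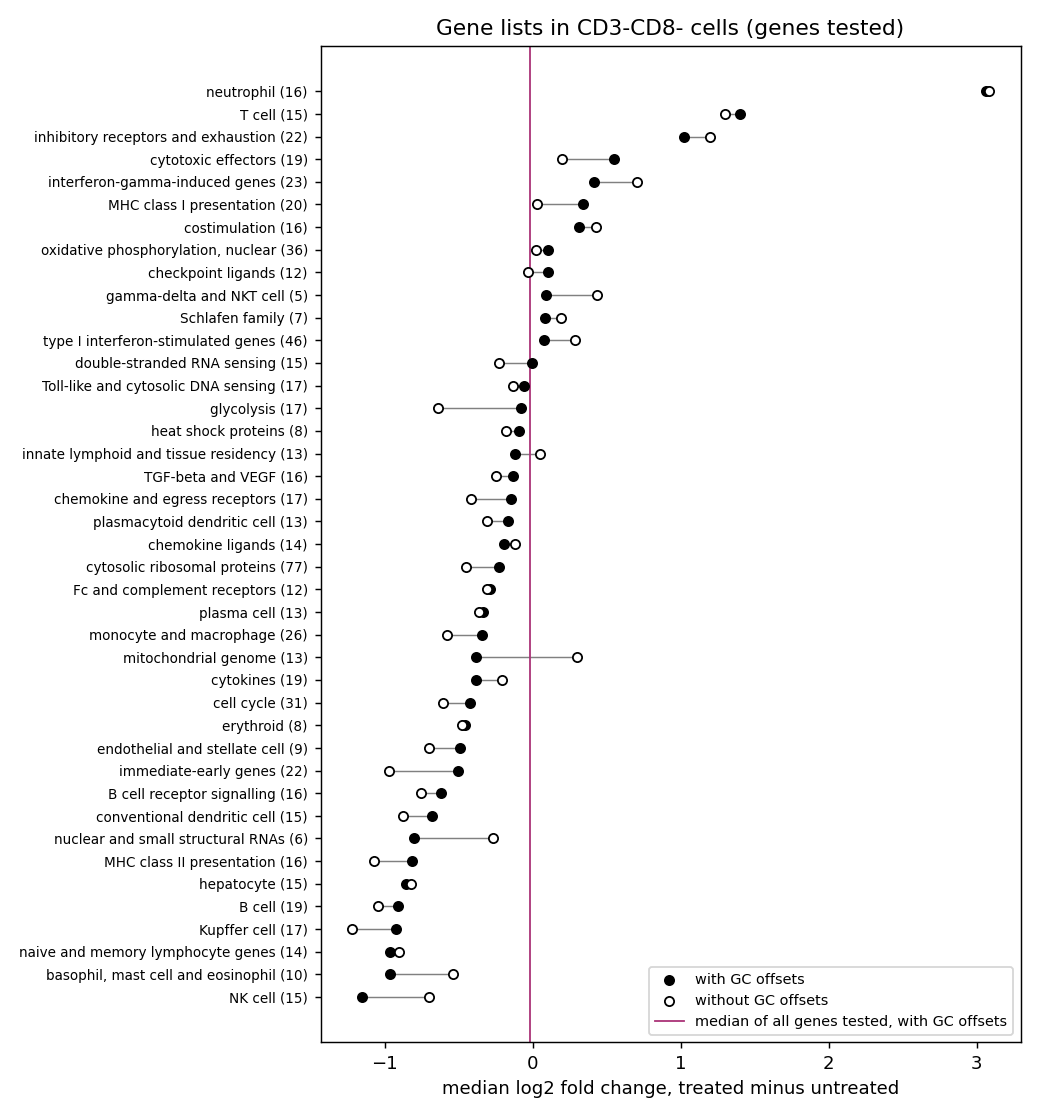
Median log2 fold change of treated against untreated CD3-CD8- cells (horizontal axis) for the 41 gene lists with at least 5 genes tested (number in parentheses), with the GC offsets (filled) and without them (open). The vertical line is the median of all genes tested with the offsets, -0.02. The T cell and inhibitory receptor lists lie above 1 with both, and the B cell, class II and naive lymphocyte lists lie below -0.8 with both. The neutrophil median with the offsets drops to 0.96 without treated 11.

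The largest falls, by the same rule of level, included genes of ribosomes and mitochondria, and several of these varied widely among untreated libraries. Rpl36, a protein of the large ribosomal subunit, had 330.0, 141 and 19.2 CPM in untreated 1, 5 and 18 and 3.74, 4.30 and 2.48 CPM in treated 2, 11 and 19 (log2 fold change -4.28, SE 0.89, edgeR adjusted p = 0.04998). Rpl29, another protein of that subunit, had 515, 286 and 77.5 CPM and 21.1, 16.9 and 11.8 CPM (log2 fold change -2.87, SE 0.56, edgeR adjusted p = 0.0448). The untreated libraries of both genes were far apart, with untreated 1 the highest and untreated 18 the lowest, and all lay above the treated ones. Of 77 cytosolic ribosomal protein genes 6 fell and 2 rose with the offsets (the rises of Rps6 and Rps27 did not pass without), 28 fell and 2 rose without (15.3% and 10.2% of all genes), and the median was -0.22. Rplp0, the stalk protein of the large subunit, had 1769, 1767 and 1053 CPM and 494, 469.5 and 493 CPM (log2 fold change -1.32, SE 0.24, edgeR adjusted p = 0.0387), and Rpl8, Rpl18 and Rpl28 fell by 1.02, 1.75 and 1.79 on the log2 scale.

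Of 36 nuclear genes of oxidative phosphorylation 2 rose, Ndufs3 and Cox8a, both with the offsets alone, and 2 fell, against 1.94% and 1.88% of all genes. Ndufs7, a core subunit of complex I, had 32.1, 26.3 and 8.79 CPM untreated and 2.39, 2.27 and 3.2 CPM treated (log2 fold change -1.92, SE 0.39, edgeR adjusted p = 0.047), and Ndufa8 fell by 0.62 (edgeR adjusted p = 0.04998). Ndufb7, another subunit of complex I, had 55.6, 44.6 and 16.8 CPM and 8.24, 5.31 and 4.32 CPM (log2 fold change -2.30, SE 0.47, edgeR adjusted p = 0.0489). Untreated 18 had the lowest untreated level of Ndufs7 and Ndufb7, as it did for the ribosomal genes. Timm13, a carrier of the mitochondrial import system, Bola2, Esrra, an orphan nuclear receptor of energy metabolism, Mvp, Fam221b, Isoc2a, the small nucleolar RNA Snord17 and the B cell gene Ly6d were the others among the 12 largest falls, with log2 fold changes between -2.81 and -1.97. The share of counts on ribosomal loci, which hold no ribosomal protein gene, was also lower in treated libraries. Its part in these falls was not tested.

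Of the genes that passed both ways, median transcript GC was 49% in the 172 higher genes and 51.4% in the 237 lower ones, against 49% in all genes, and median transcript length was 2610 and 2942 bases against 3086. The 96 genes that were higher with the offsets alone had a median GC of 56.4%. Protein-coding genes made up 79.7% of the higher and 88.2% of the lower genes, against 86.8% of all.

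Most genes that changed in CD3-CD8- cells had a fold change of the same sign in the sorted T cells. Of the 172 higher genes 169 were measured in the fit of all 18 libraries, and 156 of them (92.3%) had a positive treatment effect in CD3+CD8+ cells and 147 (87%) in CD3+CD8- cells, against 45.4% and 49.5% of all genes. Of the 237 lower genes 234 were measured, and 12 (5.13%) and 40 (17.1%) had a positive effect there. The median effect of the higher genes was 1.36 in CD3-CD8- cells, 0.88 in CD3+CD8+ cells and 0.37 in CD3+CD8- cells, and that of the lower genes -1.26, -0.76 and -0.34. No library is shared between these fractions, but libraries of different fractions share numbers and deviate together, and 3 of the T cell libraries had most of their counts on ribosomal loci. Some of the untreated CD3+CD8+ libraries also held B cell RNA: Cd79a had 11.3, 1.57 and 126 CPM in replicates 1, 5 and 18 and H2-DMb2 18.9, 3.66 and 70.5 CPM, and both were below 4 CPM in all 3 treated CD3+CD8+ libraries.

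In CD3+CD8+ cells Coch had 3.78, 0.731 and 0 CPM in untreated libraries 1, 5 and 18 and 17.2, 10.7 and 43.8 CPM in treated libraries 11, 2 and 19, and its treatment effect was 4.51 there against 5.02 in CD3-CD8- cells. Havcr2 had 22.7, 29.3 and 24.1 CPM and 134, 73.8 and 119 CPM in CD3+CD8+ cells, against 23.6, 25.4 and 19.3 CPM and 80.4, 80.9 and 97.1 CPM in CD3-CD8- cells in the same scaling. In CD3+CD8- cells the effect on Havcr2 was 0.17, and the untreated and treated libraries overlapped. Ccl5 had effects of 2.30, 2.14 and 0.19 in CD3-CD8-, CD3+CD8+ and CD3+CD8- cells. The treated level of these 3 genes in CD3-CD8- cells overlapped that in CD3+CD8+ cells. Among the 169 higher genes 91 (53.8%) had a higher mean level in treated CD3+CD8+ than in treated CD3-CD8- cells, against 52.7% of all genes. The choice of these genes in the same treated CD3-CD8- libraries can lower that share. In untreated mice 194 of the 234 lower genes (82.9%) had a lower mean level in CD3+CD8+ than in CD3-CD8- cells, against 51.8% of all genes, a share raised by the choice of these genes in the same untreated CD3-CD8- libraries.

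No gene passed a test of the difference in treatment effect between CD3-CD8- cells and either T cell fraction. Against CD3+CD8+ cells 0 of 13181 genes passed (0%) and 390 had an unadjusted p below 0.05, with a smallest adjusted p of 1. Against CD3+CD8- cells 0 passed (0%) and 475 had such a p, with a smallest adjusted p of 0.304 (edgeR, all 18 libraries). The gene with the smallest p against CD3+CD8- cells was Mx1, which had 19.9, 17.6 and 18.8 CPM in untreated and 44.6, 36.4 and 28.1 CPM in treated CD3-CD8- libraries, and 46.9, 39.9 and 31.6 CPM and 29.7, 25.1 and 19.8 CPM in CD3+CD8- libraries. Mx1 was thus higher in treated CD3-CD8- cells and lower in treated CD3+CD8- cells, a difference of 1.52 (SE 0.26) on the log2 scale that did not pass. Cd37, a tetraspanin of mature B cells, had the smallest p among genes with a more negative effect than in CD3+CD8+ cells, with effects of -0.67 in CD3-CD8- and 0.12 in CD3+CD8+ cells (difference -0.78, SE 0.19). Among named genes whose log2 CPM averaged 3 or more, Xlr4c and the neutrophil genes Ltf and Ngp had the smallest p-values among genes with a more positive effect in CD3-CD8- than in CD3+CD8+ cells. Ltf, which encodes lactoferrin, had 14.6, 507 and 47.4 CPM in treated CD3-CD8- libraries 2, 11 and 19, again highest in treated 11. It averaged 2.30 CPM in the untreated CD3-CD8- libraries.

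**Figure D5:**
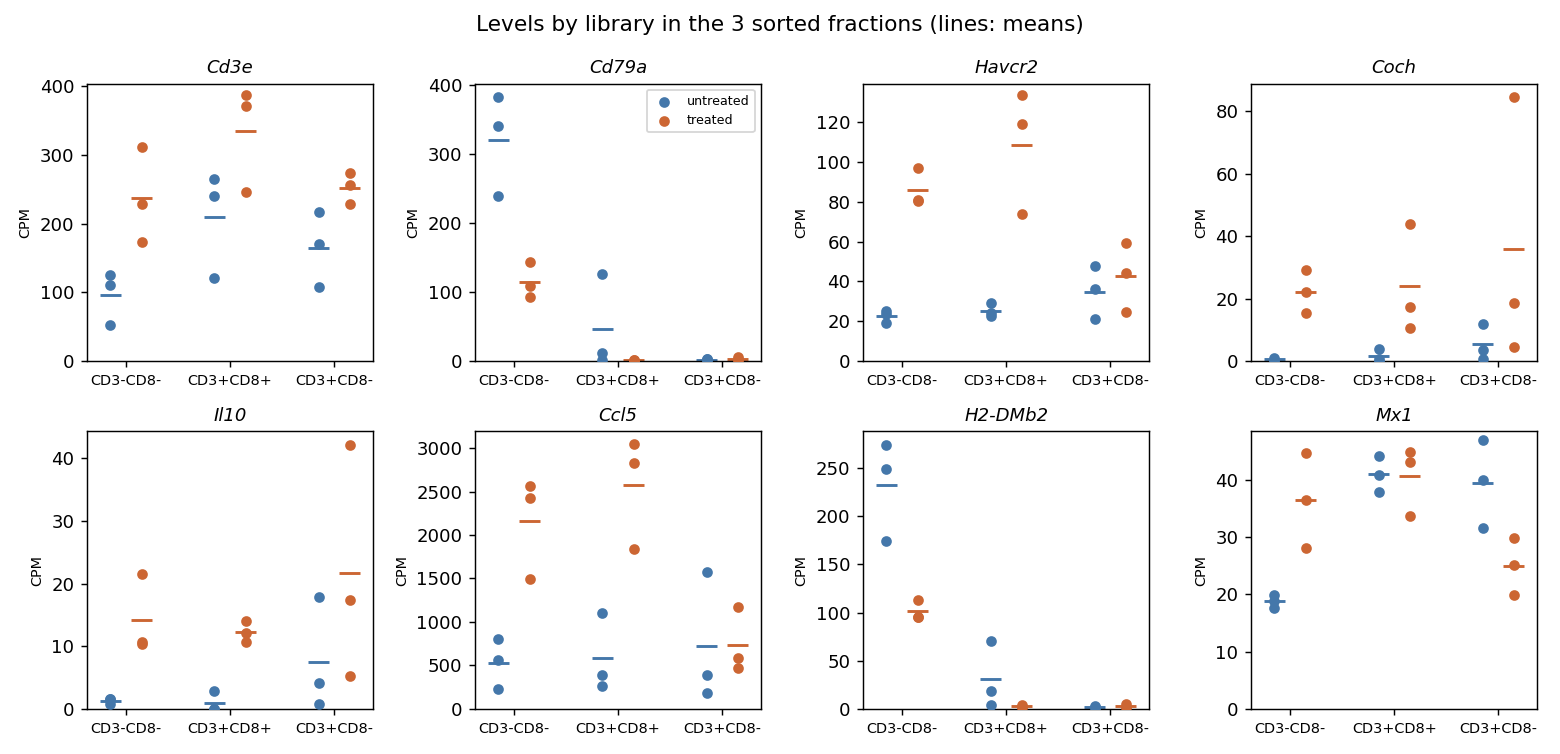
CPM by library (vertical axes, scaled over all 18 libraries) of 8 genes in the 3 sorted fractions, with untreated libraries in blue, treated ones in orange and the mean of each group as a line. Treated CD3-CD8- cells carry Cd3e, Havcr2 and Ccl5 at levels that overlap those of treated CD3+CD8+ cells, while Cd79a and H2-DMb2 are high in CD3-CD8- cells and lower after treatment.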

How the data were processed

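Total RNA from sorted liver leukocytes was read by RNA sequencing, and the authors deposited a table of raw counts per gene and a table of FPKM (fragments scaled to transcript length and library size) for the same libraries. Per the submitters' processing notes, the tools were HTSeq 0.13.5, DESeq2 3.20, Trim Galore 0.6.7 and Cufflinks 2.2.1. An aligner or build is not given in the sources used here. Of 40 library columns 18 belong to the samples here and 22 were not used. Chromosomes and positions come from the deposited FPKM table, whose starts were shifted to count from 1.

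Treated and untreated CD3-CD8- libraries, 3 each, were compared with edgeR 4.0.16 (quasi-likelihood F test, R 4.3.3) on the counts as deposited, after filterByExpr (13781 of 48440 identifiers) and TMM scaling. Offsets removed each library's trend (lowess, span 0.3) of log2 CPM against GC content. Exon GC had been planned, but with no genome at hand the GC of the longest GENCODE vM21 transcript of each gene was used (99.77% of genes tested had one). Genes with a Benjamini-Hochberg adjusted p below 0.05 were called, and "without the offsets" names the same fit with no GC term. Per-library CPM are scaled without the GC offsets, while fold changes include them unless stated. Differences between fractions were tested in 1 fit of all 18 libraries. Tested on simulated counts for treated against untreated CD3-CD8- cells (13503 genes), the fit recovered 20% of changes of 1 and 91% of changes of 2 on the log2 scale, and 7.5% of its calls were false. The changed genes all had a mean CPM of 3 or more on the log2 scale. The simulated GC trend was set by hand, and the spread was taken from a fit without the offsets, so these shares may differ in the data.

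The alternatives used limma 3.58.1, DESeq2 1.42.0 and limma on log2 FPKM. CD3-CD8- libraries deviated together with the same-numbered libraries of the other fractions (correlations of deviations 0.162 to 0.59 over 8417 genes, 11 pairs), and on that ground the numbers were taken to pair the samples, which the labels do not state. Differently numbered libraries reached 0.406, and a same-numbered pair of CD3+CD8+ and CD3+CD8- libraries was at -0.184. Named genes are a fixed set, the 12 largest changes each way among named genes called with and without the offsets whose log2 CPM averaged 3 or more, up to 5 members of each list by the same calls (the most abundant 2 where fewer than 2 passed), and the 5 smallest p-values each way for each difference. Further members that complete a list's calls were named after their values were seen. The genes and lists were chosen with earlier results of these data known.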

Additional observations from a re-analysis of the deposited data

How the results depend on the processing

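The 527 calls of the treatment comparison became 3522 without the GC offsets (1407 higher, 2115 lower), 2243 with no filter on low counts, 1811 with DESeq2, 3369 with limma voom and quality weights, 100 in the fit of all 18 libraries, 7 with the sequencing lane as a covariate, 251 with limma on log2(FPKM + 1) and 281 on log2(FPKM + 0.1), and 0 to 347 when 1 library was left out. On the FPKM scale 53 of 251 and 55 of 281 were higher. Fits chosen after seeing the data gave 1045 calls with sex as a covariate and, without the GC offsets, 2403 without untreated 1, 239 without untreated 5, 2688 without untreated 18, 910 without treated 2, 3183 without treated 11 and 1185 without treated 19. The fits with GC and length offsets, a coarser smooth, DESeq2 size factors, library totals, a CPM filter of 5, or without immunoglobulin, erythroid, hepatocyte and mitochondrial genes gave 509 to 737. The cause of these shifts was not tested. The test of the difference in treatment effect gave 0 calls against either T cell fraction in each alternative run. With the replicate number as a block, taken as a pairing of the samples, it gave 0 calls, with 591 and 1043 unadjusted p-values below 0.05 against CD3+CD8+ and CD3+CD8- cells and smallest adjusted p-values of 0.595 and 0.168. With 3 libraries a group and treated 11 at 4158555 counts, most changes of 1 on the log2 scale in the simulated counts were beyond the reach of the fit.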

Other observations

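Of 64 T cell receptor segments tested 56 had a positive fold change in treated CD3-CD8- cells, with a median of 1.497 on the log2 scale, and 7 rose with the GC offsets and 25 without, where 1.94% and 10.2% of all genes rose. Of 84 immunoglobulin heavy variable segments 11 had a positive fold change, with a median of -0.76, and 1 fell with the offsets, while 12 fell and 1 rose without, a share of falls near the 15.3% of all genes. Of 88 kappa variable segments 17 had a positive fold change, with a median of -0.47, and 1 fell without the offsets, fewer than the share of all genes. Many segments are near-identical copies, so the way reads were counted between them makes single segments uncertain.

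Genes of cell division were lower by sign more often than not. Of all genes tested 48.4% had a positive fold change and 1.88% fell. Of 31 cell cycle genes 5 had a positive fold change, with a median of -0.42, and 1 fell, Tk1, the thymidine kinase of dividing cells, with 11.6, 13.6 and 13.01 CPM untreated and 3.2, 5.31 and 3.24 CPM treated (log2 fold change -1.52, SE 0.26, edgeR adjusted p = 0.0363). Mki67, the Ki-67 marker of dividing cells, went the other way by level, with 75.6, 77.1 and 73.2 CPM and 104, 133 and 84.1 CPM without overlap, and did not pass (log2 fold change 0.35, SE 0.18, edgeR adjusted p = 0.285).

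Of 17 glycolysis genes 1 rose, Hk1, with the offsets alone, and 2 fell, Slc2a1, the glucose transporter GLUT1 (33.1, 31.1 and 27.5 CPM untreated, 14.9, 11.6 and 10.9 CPM treated, log2 fold change -0.85, SE 0.17, edgeR adjusted p = 0.0465), and Pfkl, a phosphofructokinase (47.3, 48.7 and 38.2 CPM and 16.6, 10.6 and 15.5 CPM, log2 fold change -0.84, SE 0.16, edgeR adjusted p = 0.0413). Without the GC offsets 9 fell (15.3% of all genes did), and the list's median was -0.64 in place of -0.08. Of 22 immediate-early genes, which stress and handling can induce, 5 had a positive fold change and 0 passed with the offsets in edgeR (8 had an unadjusted p below 0.05, 5 passed by DESeq2 and 12 by limma voom, and 10 fell without the offsets). Of all 13781 genes 3490 had such a p, 1811 passed by DESeq2 and 3369 by limma voom, and 15.3% fell without the offsets. The 13 genes of the mitochondrial genome, with a median transcript GC of 37.1%, had a median of -0.38 with the offsets and 0.30 without, so the sign of this list depended on the offsets. Of 1576 unnamed gene models tested 31 rose and 25 fell, near the 1.94% and 1.88% of all genes.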
